A study of Mus musculus with 7 samples.

Results

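The Myc network and ribosome biogenesis genes examined here are 46 genes that were listed by name: 7 transcription factors of the Myc network and 39 genes of the nucleolus and of RNA polymerase I. Each gene was measured through the probe sets that the platform table pairs with it, and where several matched, the brightest one on average was used. All 46 were measured, out of 18193 genes on the array. The samples were total RNA from myoblasts of C57BL/6 mice, the precursor cells of skeletal muscle fibres, hybridised as biotin-labelled cRNA to Affymetrix arrays. They fell into 3 wild type samples, all female, and 4 samples of HMGA2 -/- mice (Hmga2 KO), with males as replicates 1 and 3 and females as replicates 2 and 4. The cells received no treatment, per the labels, which do not state the age of the mice, how the cells were cultured or how the Hmga2 allele was made. The design asks which transcripts differ in myoblasts without Hmga2, an architectural protein of chromatin.

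Myc pairs with Max, and the pair binds the E-box CACGTG in promoters and raises transcription of genes for growth, among which those for making ribosomes stand out. Mxd1, Mxd4, Mxi1 and Mnt also pair with Max and occupy the same sites as repressors. In the nucleolus, RNA polymerase I transcribes the precursor of ribosomal RNA, small nucleolar RNPs modify and help to cut it, and a large set of assembly factors folds it into the small and large subunits. Dividing precursor cells such as myoblasts run this pathway at a high rate and lower it as they differentiate.

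The E-box was looked for in the promoter windows of these genes, since it is the site through which the Myc network is known to act on them. Windows of RefSeq (build GRCm38.p6) run from 250 bases before to 50 bases after the transcription start, and 39 of the 46 genes matched by symbol. Bop1, Npm1, Nol6, Rrs1, Fbl, Myc and Rrp12 had no entry. The motif CACGTG reads the same on both strands, and it was the only motif searched. It stood in the window of 11 of the 39 genes (28.2%), and in that of 1479 of 14452 genes on the array that had a window (10.2%). Of the Myc network 3 of 6 had it (Max, Mxd4 and Mnt). Of the other genes 8 of 33 did (Mybbp1a, Wdr43, Utp20, Tsr1, Ltv1, Pes1, Nop2 and Rrn3). A match describes these letters and shows no binding. The stretches below are those of Max and Mnt, the partner and a repressor of the network, and of biogenesis genes that differ in how they stood between the groups. They are written 5′ to 3′ on the strand of the gene, with the E-box in capitals, and the Utp20 stretch is cut at the end of its window.
Max: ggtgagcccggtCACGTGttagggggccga
Mnt: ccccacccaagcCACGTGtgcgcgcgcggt
Nop2: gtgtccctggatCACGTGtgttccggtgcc
Pes1: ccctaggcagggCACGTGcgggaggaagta
Tsr1: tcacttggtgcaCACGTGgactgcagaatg
Utp20: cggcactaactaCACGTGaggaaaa
Ltv1: gccctgtggaccCACGTGtggagctgccgg

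The Max stretch lies at chr12:76962234-76962263, minus strand, with the first base of the motif 3 bases before the start. That of Mnt lies at chr11:74830789-74830818, plus strand, 123 bases before it, and that of Nop2 at chr6:125131811-125131840, plus strand, 60 bases before it. The other motifs begin within the transcribed part, counting the start as base 1. For Pes1 the motif begins at base 3 (chr11:3963965-3963994, plus strand), for Tsr1 at base 25 (chr11:74898092-74898121, plus strand), for Utp20 at base 38 (chr10:88826765-88826789, minus strand) and for Ltv1 at base 29 (chr10:13193092-13193121, minus strand). Rrn3, the factor that brings RNA polymerase I to the ribosomal RNA genes, was the only one of the 11 with 2 E-boxes, 215 and 48 bases before its start. Its 250 bases before the start are given because of that pair (chr16:13780449-13780698, plus strand).
Rrn3: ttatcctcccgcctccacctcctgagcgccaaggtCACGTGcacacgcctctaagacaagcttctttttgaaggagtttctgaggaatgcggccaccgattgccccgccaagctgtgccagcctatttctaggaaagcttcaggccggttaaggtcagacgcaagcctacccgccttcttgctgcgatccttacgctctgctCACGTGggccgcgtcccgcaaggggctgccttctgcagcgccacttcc

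The measurements rest on 7 arrays, each with a median intensity of 150 as deposited, so every value is relative to the other transcripts of the same array. A change shared by most transcripts cannot be seen in values with equal medians, nor can fewer cells of a type be told apart from less RNA per cell. Hmga2 gave a mean intensity of 11599 in the wild type samples and of 95.8 in the Hmga2 KO samples, the direction their labels give (adjusted p = 1.00e-08, limma). The myoblast regulators Pax7, Myod1 and Myog had mean log2 levels of 12.44, 13.91 and 14.23 in wild type and of 12.54, 13.85 and 14.06 in Hmga2 KO. They belong to a list of 7 myoblast and muscle regulators, of which the others differed more or as much. Hmga2 KO minus wild type was 0.64 for Myf5, -0.33 for Des, -0.17 for Cdh15 and -0.35 for Chrnd. The smallest adjusted p in the list was 0.372 (limma). Probe sets of Y-linked genes gave 33.9 to 58.2 in the 5 female samples, which is taken as background, and all 46 genes were above 58.2 in every sample. Actb control probe sets, whose 3' to 5' ratio goes up as RNA degrades, gave 1.94 for wild type replicate 2, and the other 6 samples ran from 1.61 to 1.74. The labels call the samples biological replicates, without saying whether each is 1 animal or 1 culture, so the p-values measure the spread between these samples.

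Between Hmga2 KO and wild type, none of the 46 genes passed the test. Slightly lower means in Hmga2 KO were found for 35 of the 39 biogenesis genes and for 3 of the 7 network genes, Myc among them. On the log2(intensity + 1) scale, the median change (Hmga2 KO minus wild type) was -0.14 over the 46 genes, -0.17 over the 39 biogenesis genes and 0.0031 over the 7 network genes, against -0.071 over all genes. Myc alone had -0.20, and the 15 other Myc network and cofactor genes described below had a median of -0.17. Changes of the 46 genes ran from -0.47 for Rrp12 to 0.25 for Utp20. Limma called 0 of the 46 at an adjusted p of 0.05, with 0.0275% of all genes called, and the smallest adjusted p among them was 0.298. At an unadjusted p under 0.05, 8 were lower (17.4%) and 0 higher, beside 10.3% of all genes lower and 2.99% higher. Below the median change of all genes lay 32 of the 46 (69.6%), where 9096 of all 18193 genes lie by definition. The members were bright, with a median log2 level of 11.13 against 8.33 over all genes. Without the dimmest 40% of genes the median change of all genes was -0.099, and 28 of the 46 lay below it. The median of the members relative to it was then -0.040, and 13.2% of all genes were lower at an unadjusted p under 0.05. A change below 0 was found for 38 of the 46, beside 12292 of all 18193 genes (67.6%), a smaller share. Every Hmga2 KO sample was below every wild type sample for 5 of them, Rrp9, Dkc1, Ddx10, Pes1 and Gnl3. That is 10.9%, close to the 9.29% of all genes for which this held. For no member was every Hmga2 KO sample above every wild type sample (2.37% of all genes).

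These counts changed with single samples. The 8 genes lower at an unadjusted p under 0.05 became 15 without wild type replicate 1, where 13.7% of all genes were lower, so the count over all genes changed with the samples as well. They became 3 without wild type replicate 2 (6.52% of the members, 8.4% of all genes) and 1 without wild type replicate 3 (2.17% and 5.5%), below the share of all genes in both. When Hmga2 KO replicate 3 was left out, 4 were lower (8.7%, beside 6.61% of all genes), and without replicate 4 the count was 3 lower and 1 higher. After quantile normalization they were 2 lower (4.35%, beside 6.47% of all genes) and 1 higher, and 10413 of all 18193 genes then had a change below 0, against 12292 before. The 5 genes lower in every Hmga2 KO sample became 20 when wild type replicate 1 was left out (43.5%, beside 22.9% of all genes) and 9 when wild type replicate 2 was (19.6% and 17.2%). They became 9 when Hmga2 KO replicate 1 was left out (19.6% and 13%), 10 when Hmga2 KO replicate 2 was (21.7% and 18.7%), and 2 after quantile normalization (4.35% and 6.3%). The median of the members relative to that of all genes, -0.068, was -0.034 without wild type replicate 3 and -0.025 without Hmga2 KO replicate 4. Leaving out wild type replicate 1 gave -0.11, leaving out Hmga2 KO replicate 1 gave -0.11 and leaving out Hmga2 KO replicate 3 gave -0.11.

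**Figure D1:**
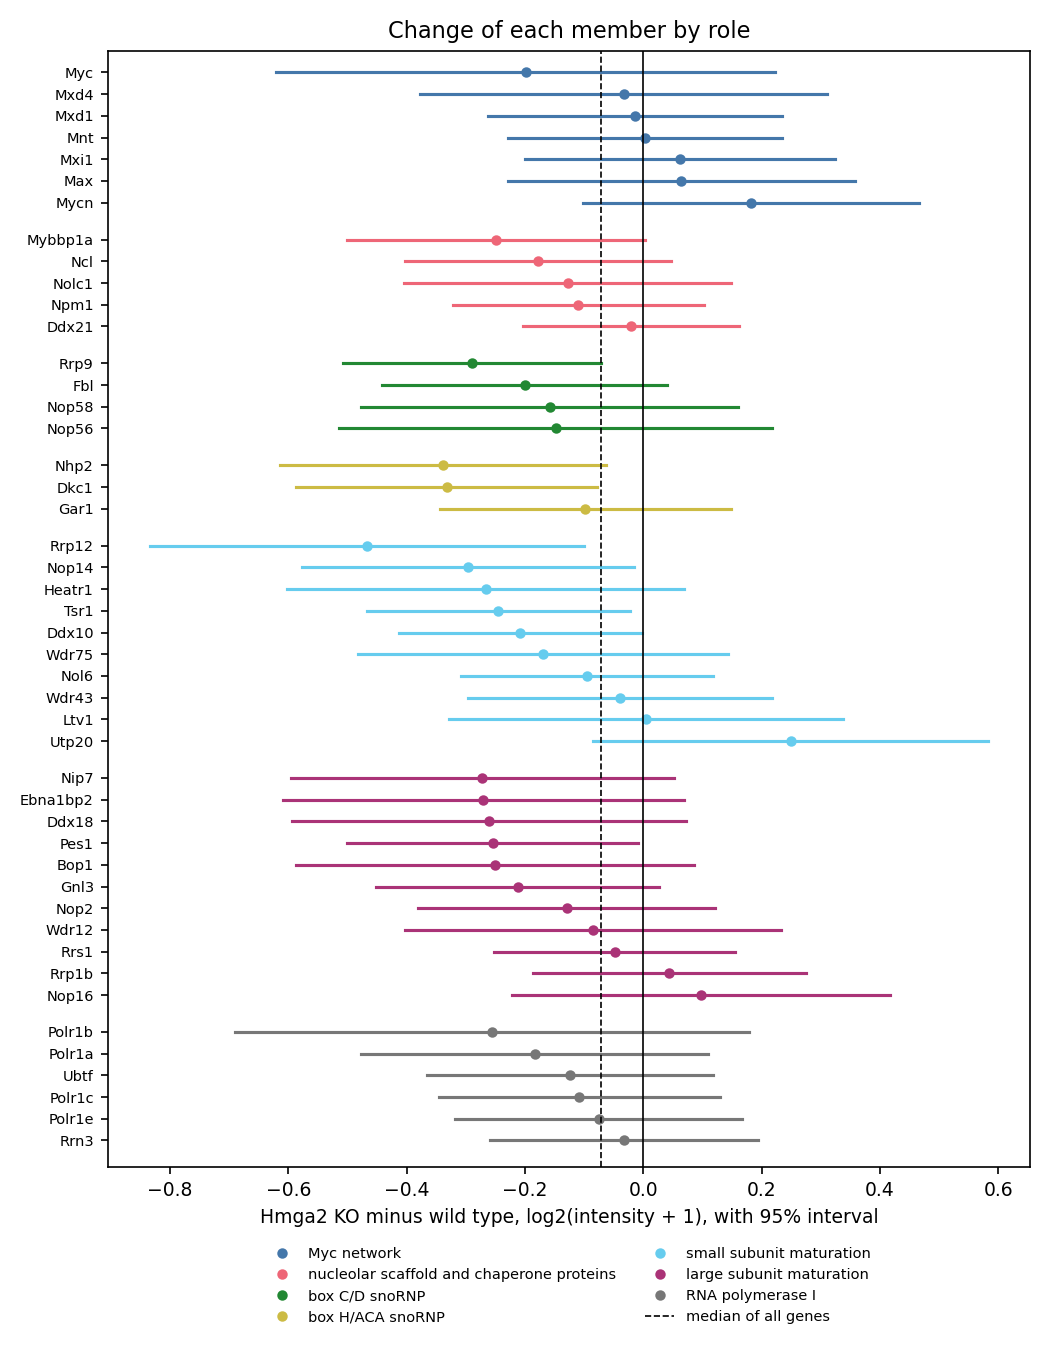
Change of each of the 46 genes, Hmga2 KO minus wild type, on the log2(intensity + 1) scale, with limma's unadjusted 95% interval as a bar, grouped and coloured by role. The solid line is 0 and the dashed line the median of all genes, -0.071. Points outside the Myc network lie mostly left of the dashed line, and the intervals of 8 genes leave out 0.

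None of the 7 transcription factors of the Myc network passed the test, and their changes ran from -0.20 to 0.18. Myc, the activating partner, had intensities of 1823, 2063 and 1328 in wild type replicates 1 to 3 and of 1358, 1697, 1786 and 1195 in Hmga2 KO replicates 1 to 4. Wild type replicate 3 lay among the Hmga2 KO values, so the groups overlapped. The change of Myc was -0.20 (SE 0.19, adjusted p = 0.658, limma), with a 95% interval of -0.62 to 0.22, which reaches to both sides of 0. It was -0.063 without wild type replicate 2, -0.093 without Hmga2 KO replicate 4 and -0.38 without wild type replicate 3, and -0.12 after quantile normalization. Mycn, the relative of Myc that is prominent in embryonic tissue, had 402, 318 and 422 in wild type and 463, 402, 391 and 464 in Hmga2 KO. Wild type replicate 2 was below the other 6 samples, wild type replicates 1 and 3 lay among the Hmga2 KO values, and the change was 0.18 (SE 0.13, adjusted p = 0.542, limma). Without wild type replicate 2 the change of Mycn was 0.058, and as the mean of its probe sets it was 0.081. A dimmer probe set of Mycn had a change of 0.22, and the third one, at 46.6 to 61.8, was near background.

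Max, the shared partner, had 5011, 3575 and 4731 in wild type and 4934, 4297, 4389 and 4782 in Hmga2 KO, where its SD of 0.096 was the smallest of the network. Its change was 0.064 (SE 0.13, adjusted p = 0.856, limma), and wild type replicate 2 alone was low. Without wild type replicate 2 the change of Max was -0.084, the opposite sign.

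Among the partners of Max that act as repressors, Mxd1 had 562, 504 and 483 in wild type and 451, 570.1, 493 and 536 in Hmga2 KO, with a change of -0.014 (interval -0.26 to 0.23). For Mxd4 the intensities were 835, 1278 and 1091 in wild type and 911, 1175, 1013 and 1030.0 in Hmga2 KO, with a change of -0.033 (interval -0.38 to 0.31). All 4 Hmga2 KO values of Mxd4 lay within the wild type range, while those of Mxd1 reached beyond it on both sides. Mxi1 had 2182, 2293 and 1928 in wild type and 2453, 1935, 2133 and 2410.3 in Hmga2 KO, with a change of 0.062 (interval -0.20 to 0.32). For Mnt the wild type samples gave 1379, 1427 and 1333 and the Hmga2 KO samples 1536, 1243, 1465 and 1306, with a change of 0.0031 (interval -0.23 to 0.23). Replicates 1 and 4 of Hmga2 KO were above the wild type range for Mxi1, and for Mnt the Hmga2 KO values lay on both sides of that range. Mnt was the least variable of the network in wild type, with an SD of 0.049 over the 3 samples. The signs of Mxd1, Mxd4, Mxi1 and Mnt turned under at least 1 of the alternatives tried, and the smallest adjusted p in the network was 0.542, for Mycn.

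**Figure D2:**
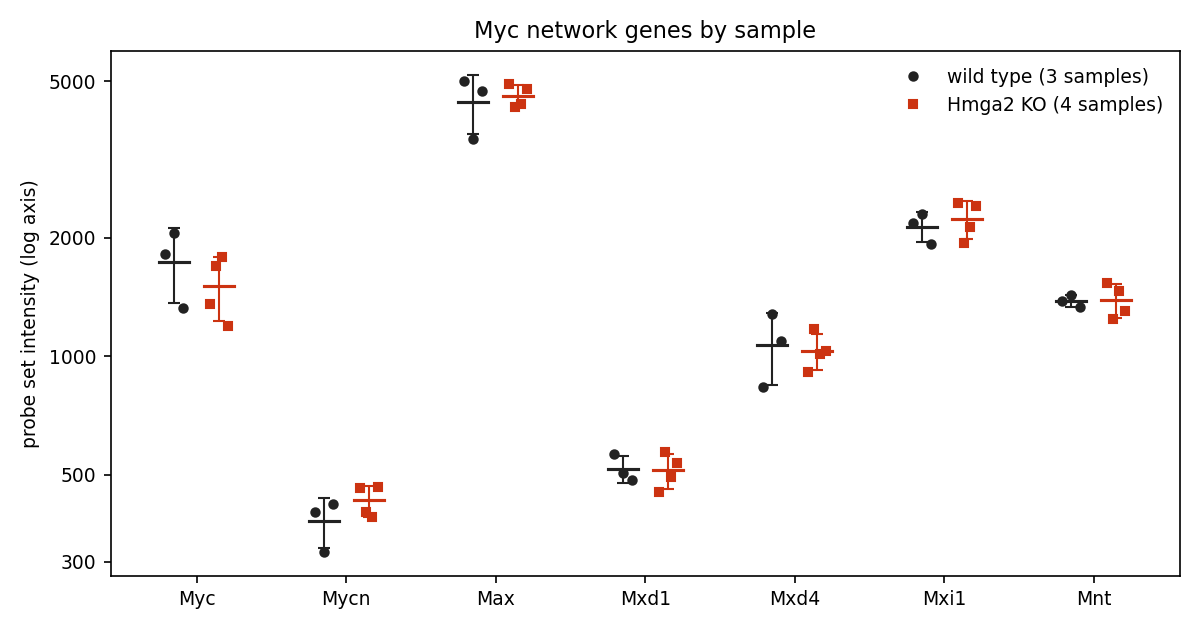
Intensity of the 7 Myc network genes in each sample on a log axis, with wild type as circles and Hmga2 KO as squares. Horizontal bars are group means and error bars 1 SD over 3 or 4 samples. The groups overlap for all 7 genes, and Myc ranges from 1328 to 2063 within wild type alone.

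RNA polymerase I and its factors showed no difference past the test either. Polr1a and Polr1b are the largest subunits and form the catalytic core. Mean log2 levels in wild type and Hmga2 KO were 9.50 and 9.32 for Polr1a and 8.80 and 8.54 for Polr1b. Polr1b varied most of the 6, from 344 to 548 among wild type samples and from 306 to 458 among Hmga2 KO samples. Polr1c, a subunit shared with RNA polymerase III, had 2332, 2406 and 2534 in wild type and 2345, 2247, 2485 and 1949 in Hmga2 KO. The low value was that of Hmga2 KO replicate 4, and the change of -0.11 (SE 0.11, adjusted p = 0.672, limma) was -0.040 without it. Polr1e had mean log2 levels of 10.73 and 10.65, and Ubtf, the factor that keeps ribosomal RNA genes open, 12.73 and 12.60. Rrn3 had 9056, 7783 and 9273 in wild type and 8251, 7981, 8622 and 9118 in Hmga2 KO, with a change of -0.033 (interval -0.26 to 0.19), and here replicate 4 was the highest Hmga2 KO sample. In all 6 genes the Hmga2 KO mean was below the wild type mean, the median change was -0.12, and the smallest adjusted p was 0.551 (limma).

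The abundant nucleolar proteins came next. Ncl, nucleolin, had mean log2 levels of 13.51 and 13.34 in wild type and Hmga2 KO, Npm1, the chaperone nucleophosmin, 14.01 and 13.90, and Nolc1, a scaffold for small nucleolar RNPs, 12.23 and 12.10. Mybbp1a, a nucleolar protein that restrains transcription, had the largest difference of the 5, with 11.87 and 11.62 (adjusted p = 0.381, limma). Ddx21, an RNA helicase that binds both RNA polymerase I and small nucleolar RNAs, had 14854, 14454 and 15164 in wild type and 14753, 14656, 14774 and 14265 in Hmga2 KO. All 7 values of Ddx21 lay close together, and its change was -0.021 (interval -0.20 to 0.16). Its dimmer probe set had a change of 0.12. The other 4 probe sets of Ncl had changes of -0.075, -0.11, -0.33 and -0.18, all in the direction of the brightest one.

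The proteins of small nucleolar RNPs held 3 of the 8 genes at an unadjusted p under 0.05. Lower at that p were 25% of the 4 box C/D genes and 66.7% of the 3 box H/ACA genes, beside 10.3% of all genes. Without Hmga2 KO replicate 4 these shares were 25% and 33.3%, beside 6.56% of all genes. In the box C/D particles, which guide methylation of ribosomal RNA, Rrp9 had 780.2, 698 and 762 in wild type and 666, 606, 614 and 559 in Hmga2 KO. Rrp9 binds the U3 small nucleolar RNA, and its groups did not overlap. Its mean log2 level was 9.54 ± 0.084 (SD, n = 3) for the wild type samples and 9.26 ± 0.10 (SD, n = 4) for the Hmga2 KO samples, and its change of -0.29 (SE 0.096, adjusted p = 0.298, limma) was the one with the smallest p among the 46 genes. The methyltransferase Fbl had mean log2 levels of 12.03 and 11.83, the core protein Nop56 12.33 and 12.19 and the core protein Nop58 12.49 and 12.33. The changes of Nop56 and Nop58, -0.15 and -0.16, were -0.036 and -0.060 without Hmga2 KO replicate 4.

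In the box H/ACA particles, which guide pseudouridylation, Dkc1, the pseudouridine synthase, had 5131, 5142 and 5500.4 in wild type and 4031, 4748, 4423 and 3582 in Hmga2 KO, again with no overlap. The change of Dkc1 was -0.33 (SE 0.11, adjusted p = 0.305, limma), and its other 2 probe sets had changes of -0.16 and -0.21. The gene is X-linked, and without the males its change was -0.35. Nhp2 had 1499, 1642 and 1713 in wild type and 1542, 1232, 1247 and 1122 in Hmga2 KO, where only replicate 1 reached the wild type values. The change of Nhp2 was -0.34 (SE 0.12, adjusted p = 0.313, limma), and -0.33 on its other probe set. The third core protein, Gar1, had mean log2 levels of 12.58 and 12.48 and overlapping groups. The 3 genes had a median change of -0.33, and of -0.26 without Hmga2 KO replicate 4.

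Small subunit factors held 4 of the 8 genes as well as the gene that stood highest. That is 40% of the 10 factors lower at an unadjusted p under 0.05, beside 10.3% of all genes. Without Hmga2 KO replicate 4, 10% of them were lower, beside 6.56% of all genes. Rrp12, which acts in the maturation and export of pre-ribosomal subunits, had 656, 1070.3 and 871 in wild type and 577, 707, 579 and 602 in Hmga2 KO. Wild type replicate 2 was far above the rest, and replicate 1 lay among the Hmga2 KO samples. The change of -0.47 (SE 0.16, adjusted p = 0.305, limma) was -0.30 without wild type replicate 2, while leaving out replicate 1 of wild type gave -0.65. Nop14, a component of the early small subunit particle, had 1504, 1959.8 and 1793 in wild type and 1484, 1598, 1343 and 1270.1 in Hmga2 KO, with a change of -0.30 (adjusted p = 0.356, limma). Wild type replicate 1 overlapped with Hmga2 KO replicate 2.

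Tsr1, a late small subunit factor, had 3750.3, 4426 and 4219.7 in wild type and 3357, 3799, 3423 and 3354 in Hmga2 KO. Hmga2 KO replicate 2 stood above the other 3 and just above wild type replicate 1. Its change was -0.24 (SE 0.098, adjusted p = 0.342, limma), and -0.30 on its other probe set. The helicase Ddx10 had 1538, 1715 and 1594 in wild type and 1379, 1514, 1344 and 1359 in Hmga2 KO. Its groups did not overlap, but Hmga2 KO replicate 2 was near wild type replicate 1, and the change was -0.21 (SE 0.091, adjusted p = 0.374, limma). For Utp20, a large scaffold of the early particle, the intensities were 1134, 1431 and 1435 in wild type and 1658, 1623, 1828 and 1253 in Hmga2 KO. Hmga2 KO replicates 1 to 3 were above all wild type samples and replicate 4 among them. The change was 0.25 (SE 0.15, adjusted p = 0.479, limma), and 0.36 without replicate 4 (adjusted p = 0.534, limma). It was 0.14 without wild type replicate 1, and 0.11 in females alone and with sex as a covariate.

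Ltv1, an export factor of the small subunit, had 1739, 2354 and 2070.3 in wild type and 2032, 2352, 2205 and 1663 in Hmga2 KO, and the groups covered nearly the same range. Its change was 0.0050 with an interval of -0.33 to 0.34. Among the remaining small subunit factors, Heatr1 had mean log2 levels of 10.44 and 10.17, Wdr75 11.99 and 11.82, Nol6 11.34 and 11.24 and Wdr43 12.71 and 12.67. Their adjusted p ran from 0.457 for Heatr1 to 0.899 for Wdr43 (limma). A dimmer probe set of Heatr1 had a change of 0.13, opposite to the -0.27 of the brightest one.

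Large subunit factors had the median change of -0.21, with 1 gene of 11 lower at an unadjusted p under 0.05 (9.09%, beside 10.3% of all genes). This was Pes1, which forms a complex with Bop1 and Wdr12 that is needed to process the large subunit RNA. It had 1239.5, 1286 and 1387 in wild type and 1183, 1172, 1094 and 937 in Hmga2 KO, with replicate 4 lowest and no overlap, and a change of -0.25 (SE 0.11, adjusted p = 0.365, limma). Without that replicate the change of Pes1 was -0.18. Its partners Bop1 and Wdr12 had mean log2 levels of 10.61 and 10.36 and of 10.89 and 10.80, with overlapping groups and adjusted p of 0.481 and 0.820 (limma). Gnl3, nucleostemin, a GTPase of stem and precursor cells, had 5515, 6015 and 6893 in wild type and 5417, 5422, 5482 and 4818 in Hmga2 KO. The lowest wild type value of Gnl3 was just above the highest Hmga2 KO value, and the adjusted p was 0.416 (limma).

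The helicase Ddx18 had 1706, 2088 and 2065 in wild type and 1869, 1689, 1740.5 and 1265 in Hmga2 KO, where replicate 4 was far below the other samples. Its change of -0.26 was -0.14 without replicate 4. Nip7 had mean log2 levels of 11.64 and 11.36, Ebna1bp2 11.32 and 11.05, the RNA methyltransferase Nop2 10.90 and 10.77 and Rrs1 13.14 and 13.10. Of the genes with a higher mean in Hmga2 KO, Nop16 had 1137, 817 and 1098 in wild type and 1249.8, 1034, 965 and 1079 in Hmga2 KO, and wild type replicate 2 was the low one. Its change was 0.097, while a probe set of like intensity had a change of -0.28, so the probe sets of Nop16 disagreed in sign. Rrp1b had 4283, 3736 and 3949 in wild type and 4091, 4319.9, 4402 and 3655 in Hmga2 KO, with a change of 0.044 and with 0.076 and -0.16 on its other probe sets.

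Over all 46 genes, 33 had more than 1 probe set. Of the 50 probe sets besides the brightest, 46 were above background in every sample, and 35 of these had a change of the same sign as the brightest probe set of their gene. For 41 of the 46 the brightest probe set had a change below 0. Of those 41, 32 had a change below 0 too, where 67.6% of all genes had one. None of the 50 passed the test by limma over all probe sets, and 6 were lower and 0 higher at an unadjusted p under 0.05 (7.88% of all probe sets were lower). Among the biogenesis genes with a promoter window, the 8 with CACGTG had a median change of -0.085 and the 25 without it -0.18, given as a description.

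The samples were then set side by side, to show how far the members were high or low in the same samples. Hmga2 KO replicate 4 was the lowest of the 7 samples for 29 of the 46 genes (63.0%), of which 28 were biogenesis genes and 1, Myc, was of the network. Over all genes the same sample was lowest for 16.2%. Wild type replicate 3 was the highest for 21 members and wild type replicate 2 for 14, with shares of 29.5% and 23.0% over all genes. The mean log2 level of the 39 biogenesis genes, relative to the 7 samples' mean, was -0.019, 0.11 and 0.18 in wild type replicates 1 to 3. It was 0.0011, -0.0090, -0.047 and -0.22 in Hmga2 KO replicates 1 to 4. Wild type replicate 1 thus lay with the first 3 Hmga2 KO samples, between the other wild type samples and replicate 4.

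By role, replicate 4 was lowest in the box C/D genes (-0.30), the box H/ACA genes (-0.27), the large subunit factors (-0.25), the small subunit factors (-0.20), RNA polymerase I (-0.17) and the nucleolar proteins (-0.14), and near the mean in the Myc network (-0.0014). The terminal differentiation genes were lowest in Hmga2 KO replicate 1 (-1.02) and not in replicate 4 (-0.14), and the fibroblast markers were lower in replicate 4 (0.0040) than in the other 3 Hmga2 KO samples (0.11 to 0.40). Its Actb ratio was 1.66, within the range of the other samples, and its list mean for cell division genes was -0.14, between Hmga2 KO replicate 3 (-0.24) and replicate 2 (-0.071). Without replicate 4 the 38 genes with a lower mean in Hmga2 KO became 37, none passed by limma (0.0220% of all genes did), and the change was smaller in size for 32 of those 38. Leaving out the lowest Hmga2 KO sample of a gene always raises its change, and this sample was the lowest for 29 of the 46. The 32 thus follow in part from the choice of sample, and the share over all genes was not counted. Below the median of all genes then lay 27 of the 46 (58.7%). At an unadjusted p under 0.05, 3 were lower (Rrp9, Dkc1 and Rrp12, 6.52%) and 1 higher (Utp20), beside 6.56% of all genes lower. The share of members that were lower was then close to that of all genes. Of the 39 biogenesis genes alone, 26 (66.7%) then lay below the median of all genes, and 7.69% were lower at an unadjusted p under 0.05. With all samples 31 of the 39 (79.5%) lay below it and 20.5% were lower, beside 10.3% of all genes.

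**Figure D3:**
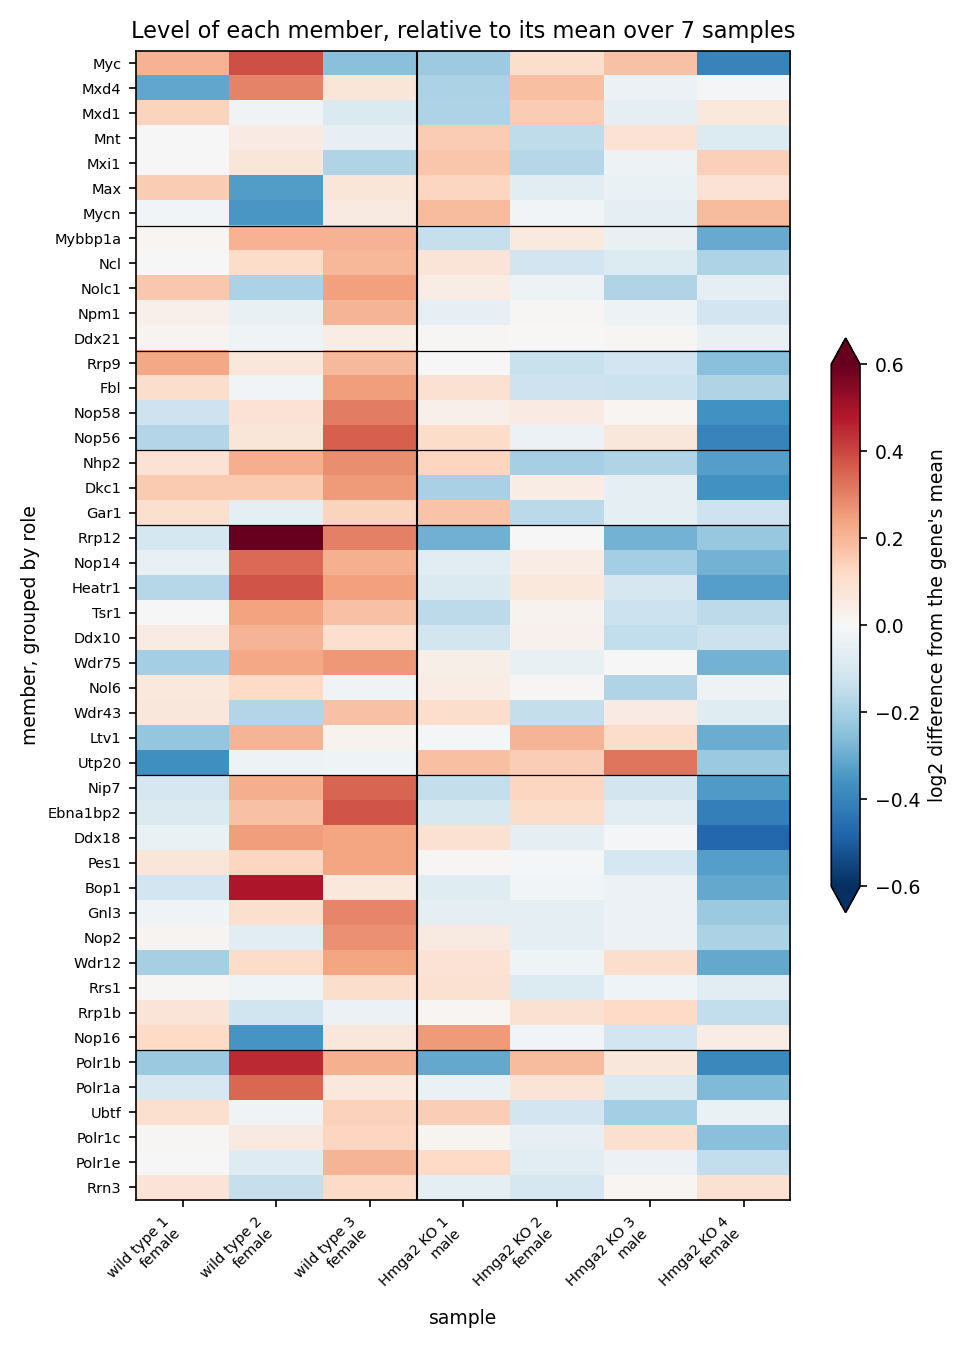
Level of each of the 46 genes in the 7 samples, as the log2 difference from the gene's own mean, with red above and blue below it. Rows are genes grouped by role and columns are samples, wild type left of the vertical line. Hmga2 KO replicate 4 is blue in most rows below the Myc network, and the lowest sample for 29 genes.

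**Figure D4:**
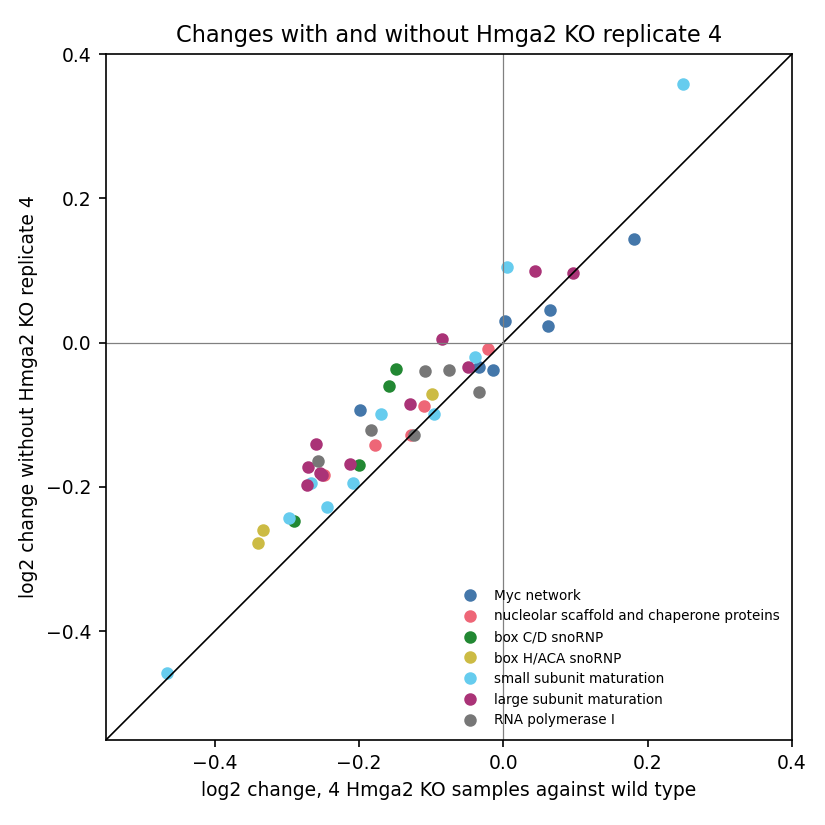
Change of each gene with all 4 Hmga2 KO samples (horizontal axis) and without Hmga2 KO replicate 4 (vertical axis), both as log2 change against wild type. Points above the diagonal have a higher change without the replicate. This must be so for each gene in which the replicate was the lowest Hmga2 KO sample. The change was -0.47 with and -0.46 without the replicate for Rrp12, and 0.25 with and 0.36 without it for Utp20.

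Sex could be compared only within Hmga2 KO, with 2 males and 2 females in a 3-group fit of all 7 samples. No member passed by limma (0.0385% of all genes did), and 0 had an unadjusted p under 0.05, where 3.65% of all genes were lower and 2.65% higher in males. Above the median of all genes (males minus females) lay 40 of the 46, and the median of the members was 0.13 above it. Without replicate 4, which is female, that value was 0.076, and without replicate 2, the other female, it was 0.21. The fit without replicate 2 had 2 members at an unadjusted p under 0.05. The share of all genes in that fit was not counted, so the 2 cannot be set against it. The smallest p-values belonged to Ddx18, Utp20, Nhp2 and Polr1c. Their mean log2 levels in males and females were 10.82 and 10.51 for Ddx18, 10.77 and 10.48 for Utp20, 10.44 and 10.20 for Nhp2, and 11.24 and 11.03 for Polr1c (adjusted p of 0.883 to 0.898, limma).

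Among the 5 females alone, 35 of the 46 genes lay below the median of all genes, and the median of the members was -0.15 against it. Lower at an unadjusted p under 0.05 were 4, Rrp9, Dkc1, Nhp2 and Ddx18, and 0 were higher (4.64% and 2.21% of all genes). Their changes in females were -0.36, -0.35, -0.46 and -0.41. With sex as a covariate in the fit of all 7 samples, 5 members were lower at an unadjusted p under 0.05, beside 5.13% of all genes. All wild type samples are female, so the changes in that fit equal those of females alone. The males enter only its estimate of the spread, and it is no separate check on sex. Replicate 4 is 1 of the 2 Hmga2 KO females, so it has more weight here than over all samples.

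Further genes of the pathway were taken from lists fixed beside the members. Of 156 such genes that were measured, 0 passed by limma, 23 were lower (14.7%) and 0 higher at an unadjusted p under 0.05, beside 10.3% of all genes lower and 2.99% higher, and 114 lay below the median of all genes. Without Hmga2 KO replicate 4, 9 were lower (5.77%), under the 6.56% of all genes, and 104 lay below the median. That sample was the lowest for 71 of the 156 (45.5%), and for 16.2% of all genes. Of other large subunit factors (median change -0.14) 35 of 48 lay below the median and 6 (12.5%) were lower at an unadjusted p under 0.05. Noc2l had mean log2 levels of 10.49 and 10.07 (adjusted p = 0.245) and Nol9 of 9.31 and 8.83 (adjusted p = 0.294). Of other small subunit factors (median change -0.16) 30 of 40 lay below and 7 (17.5%) were lower, with 11.06 and 10.72 (adjusted p = 0.314) for Noc4l and 10.89 and 10.60 (adjusted p = 0.329) for Mphosph10.

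Of other RNA polymerase I genes (median change -0.11) 9 of 12 lay below the median, and 1 (8.33%, below the share of all genes) was lower at an unadjusted p under 0.05. This was Tcof1, the treacle protein that supports ribosomal RNA transcription, with 11.22 and 10.93 (adjusted p = 0.313). Baz2a, which silences ribosomal RNA genes, had 12.24 and 12.43 (adjusted p = 0.496). Of nuclear exosome genes, which trim ribosomal RNA, (median change -0.13) 8 of 13 lay below and 1 (7.69%, also below that share) was lower, Exosc3 with 9.80 and 9.53 (adjusted p = 0.375), while Exosc7 had 9.86 and 9.62 (adjusted p = 0.411). Of other Myc network and cofactor genes (median change -0.17) 11 of 15 lay below and 3 (20.0%) were lower. The helicase Ruvbl2, a Myc cofactor, had 10.26 and 9.90 (adjusted p = 0.289), and Mlx, the centre of a parallel network, 9.26 and 9.01 (adjusted p = 0.303). Of Myc target genes outside the ribosome (median change -0.15) 21 of 28 lay below and 5 (17.9%) were lower, among them Gart, a purine synthesis enzyme, with 10.39 and 10.05 (adjusted p = 0.293), and the chaperone Fkbp4 with 10.55 and 10.25 (adjusted p = 0.293).

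Lists of markers of other states and cell types were summed in the same samples. Summed over 15 terminal differentiation genes the intensity was 66313 to 96863 in wild type and 30989 to 76085 in Hmga2 KO, the median change was -0.75, and 15 of the 15 lay below the median of all genes. In females alone their median change was -0.39. Within Hmga2 KO, 12 of the 15 were lower in males than in females at an unadjusted p under 0.05 (limma), beside 3.65% of all genes. For 14 cell division genes the sum was 57681 to 70361 in wild type and 53816 to 60358 in Hmga2 KO, the median change was -0.23, and 13 lay below. For 10 fibroblast and fibro-adipogenic progenitor markers it was 10676 to 12963 in wild type and 14742 to 16997 in Hmga2 KO, without overlap, the median change was 0.24, and 0 lay below. Of these, Lum and Dpt had intensities of at most 60.0 and 61.0, near background, and Dcn at most 82.5. For 6 endothelial markers the sum was 484 to 507 in wild type and 436 to 459.8 in Hmga2 KO, also without overlap and in the other direction, the median change was -0.14, and 6 of the 6 lay below. The highest intensity of any of these 6 was 117, and Tek stayed within background in all samples. The sums were 562 to 623 in wild type and 571 to 619 in Hmga2 KO over 7 leukocyte markers and 410.5 to 532 in wild type and 431 to 555 in Hmga2 KO over 4 Schwann cell and neural markers. The part of these differences in the levels of the biogenesis genes was not tested.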

How the data were processed

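Myoblast RNA of 3 wild type and 4 Hmga2 KO samples was measured on Affymetrix arrays. The authors deposited 1 table of probe set intensities on a linear scale for 45101 probe sets, with a median of 150 on each array. Per the labels, RNA was extracted with Trizol and biotin-labelled cRNA was hybridised; summarization, background correction and software are not given there. The number of arrays limits the precision.

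All tests and changes are on the log2(intensity + 1) scale. Probe sets of 1 gene were named through the platform table, with symbols updated through RefSeq genes (GRCm38.p6), without control probe sets and those of several genes. The brightest probe set stood for each of 18193 genes. Groups, taken from the titles, entered limma 3.58.1 (lmFit, then eBayes; R 4.3.3) with no covariate, and p-values were adjusted by Benjamini-Hochberg over all genes. Hmga2 KO males and females were compared in a 3-group fit. No test was made on lists. The scripts were tested on simulated data.

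The members and lists were chosen with earlier results of these data known. Described in full were the 7 Myc network genes and, of the other 39, the 8 with the smallest and 3 with the largest p, the 3 highest changes and the 4 with the smallest p between Hmga2 KO males and females. Of each pathway list the 2 with the smallest p were named. Gnl3 and Polr1b were given by sample after their values were seen. The alternatives were array weights, a trended and robust prior, a pseudocount of 16, the mean of a gene's probe sets, no genes from the dimmest 40%, quantile normalization, 1 sample left out at a time, the replicate block, females without the males, and a sex term. The count of genes lower in every Hmga2 KO sample, and counts by role and pathway without Hmga2 KO replicate 4, were added after the data were seen.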

Additional observations from a re-analysis of the deposited data

Results flagged for a closer look

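Among the 46 genes, 3 had 1 Hmga2 KO sample far from the other 3, by the gap to its nearest neighbour over the range of the 4 log2 values. By chance about 1 in 20 groups would show such a gap. For Nop58, a core protein of box C/D particles, Hmga2 KO replicate 4 was low, with a gap of 0.912 of the range (4208 against 5447 to 5585 in the other 3). For Gnl3 the same sample was low, with a gap of 0.908. For Tsr1, Hmga2 KO replicate 2 was high, with a gap of 0.837.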

How the results depend on the processing

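No member passed an adjusted p of 0.05 under any of the 16 alternatives (limma), where at an unadjusted p under 0.05 between 1 and 15 members had passed. Those extremes came from leaving out 1 sample. The counts and shares in this paragraph take lower and higher genes together, while the shares given above are by direction. In the main fit the count was 8 (17.4% of the members, 13.3% of all genes). It was 5 with sex as a covariate (10.9% and 7.39%) and 4 in females alone (8.7% and 6.85%). The mean of the probe sets, the pseudocount of 16 and the trended and robust prior each gave 9 (19.6%, beside 13.1%, 13.6% and 12.8% of all genes). The count was 8 without the dimmest 40% of genes (17.4% and 16.4%) and 10 with array weights (21.7% and 15.2%). It was 3 after quantile normalization (6.52% and 10.9%) and 2 with the replicate block (4.35% and 12.2%), below the share of all genes in both. The block raised the calls over all genes from 5 to 99. The titles give no pairing beyond the shared replicate number. Across genes, the deviations from the group means correlated at 0.31, 0.37 and -0.18 for same-numbered replicates 1, 2 and 3. Wild type replicate 1 with Hmga2 KO replicate 2 gave -0.40, as did wild type replicate 2 with Hmga2 KO replicate 1. Wild type replicate 3 correlated best with Hmga2 KO replicate 1. Whether same-numbered samples were handled together was not tested. Hmga2 KO replicate 4 has no partner and bore nothing on the genotype under the block. The count below the median of all genes ranged from 27 to 34 when samples were left out, and the males against females count from 0 to 2. Of 368 values of the 23 genes described in full under these alternatives, 332 kept their direction and 36 did not, none of them past the threshold. The 368 are not separate checks. The trended and robust prior and leaving out the dimmest 40% of genes cannot alter a gene's change. Females alone gave the same changes as the sex term, and the replicate block the same as leaving out Hmga2 KO replicate 4. With sex as a covariate and in females alone the changes were 0.10 for Mxd1, 0.065 for Mxd4, -0.11 for Mnt, -0.044 for Ltv1 and -0.0035 for Rrp1b. After quantile normalization they were 0.062 for Mxd1, 0.042 for Mxd4, 0.025 for Ddx21 and 0.019 for Rrn3. With the mean of the probe sets they were -0.037 for Mnt, 0.049 for Ddx21, -0.092 for Nop16 and -0.013 for Rrp1b, and with array weights 0.0022 for Mxd1 and -0.0063 for Ltv1. Over the fits that left out 1 sample, the range was -0.084 to 0.16 for Max, -0.067 to 0.048 for Mxd1, -0.20 to 0.11 for Mxd4, -0.0092 to 0.13 for Mxi1, -0.048 to 0.054 for Mnt, -0.11 to 0.11 for Ltv1, -0.11 to 0.015 for Rrn3, -0.053 to 0.18 for Nop16 and -0.0021 to 0.10 for Rrp1b. The cause of these changes was not tested.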
